A study of Mus musculus with 6 samples.

Results

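Cxcl9, Cxcl10, Cxcl11, Cxcl16 and Ccl5, 5 chemokine genes whose products attract T cells, were followed across cultures of mouse bone marrow-derived macrophages, a primary cell obtained by culturing bone marrow. The genes were taken by symbol, with earlier results of these data known; all 5 were found among 55023 listed genes, and all 5 passed the filter on low counts with 18812 genes in all. RNA sequencing libraries came from cells kept for 24 h with LCL161 plus LTα1β2, with LTα1β2 alone or with vehicle, 2 libraries each. LTα1β2, a lymphotoxin heterotrimer, signals through the lymphotoxin beta receptor. LCL161 is a small molecule of the SMAC mimetic class that acts against cellular inhibitor of apoptosis proteins (cIAP). There was no group with LCL161 alone, so an effect of LCL161 by itself and one that needs LTα1β2 cannot be told apart. No strain, sex, age, dose or genotype is given in the sources used here, and whether the 2 libraries of a group came from different mice or cultures is not stated, so p-values cover no more than the scatter of these 6 libraries, which may be technical.

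CXCL9, CXCL10 and CXCL11 are secreted ligands of the receptor CXCR3, which is carried by activated T cells and natural killer cells, and their genes are classical targets of interferon. CXCL16 is made as a membrane-bound chemokine on macrophages and dendritic cells, binds CXCR6 on effector and memory T cells and is released by membrane proteases. CCL5 binds CC chemokine receptors, CCR1 and CCR3 among them, and its gene is a known target of NF-kB and interferon regulatory factors.

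Total counts were 14718368 to 19049613 per library, where 3 reads, used as the floor, equal 0.139 to 0.23 CPM, the count on library sizes scaled by TMM factors. The summed level of 7 macrophage markers was 32065 to 33721 CPM with LCL161 plus LTα1β2, 32036 to 32720.0 CPM with LTα1β2 and 27373 to 33783 CPM in vehicle. Markers of T cells and natural killer cells were low. The 7 T cell markers summed to 4.71 to 5.36, 8.68 to 11.7 and 8.59 to 13.1 CPM in the 3 groups in that order. The 8 natural killer cell markers summed to 3.87 to 4.16, 0.909 to 1.47 and 1.32 to 1.54 CPM. Single T cell markers did not all go the same way: Cd8b1 had 9.5 and 14 reads with both agents, 2 and 7 with LTα1β2 and 4 and 3.11 in vehicle, whereas Cd4 had 33 and 31, 106 and 181, and 136 and 200 reads in that order. Cd8a had no read in either group given LTα1β2 and 0 and 2 reads in vehicle. Dendritic cell markers (6 genes) summed to 19.8 to 20.2, 13.9 to 14.6 and 8.86 to 9.67 CPM, and neutrophil markers (6 genes) to 354 to 369.6, 716 to 928 and 441 to 624 CPM. Stromal markers (9 genes) summed to 422 to 483 CPM with LCL161 plus LTα1β2, 1676 to 2439.7 CPM with LTα1β2 and 4142 to 6669 CPM in vehicle, so this sum moved against the chemokines in both steps. Its part in the results, and that of the dendritic cell sum, which moved with the chemokines, was not tested. In such bulk libraries, fewer cells of a type and less RNA per cell cannot be told apart.

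All 5 chemokine genes were higher with LTα1β2 than with vehicle and higher again with LCL161 plus LTα1β2. The lymphotoxin step was large for the 3 CXCR3 ligands and Ccl5 (30.4-fold to 918-fold by the fit) and small for Cxcl16 (2.12-fold). The LCL161 step was 1.97-fold for Cxcl9 and 10.9-fold for Cxcl11, with the other three in between. By edgeR's quasi-likelihood test with Benjamini-Hochberg adjustment over 18812 genes and calls at an adjusted p under 0.05, 5 of 5 rose in each comparison, and in each the groups did not overlap for any of the 5. Among all genes tested, the share called higher was 12.8% for LTα1β2 minus vehicle, 10.6% for LCL161 plus LTα1β2 minus LTα1β2 and 18.4% for LCL161 plus LTα1β2 minus vehicle. The share with both libraries above both of the other group, called or not, was 29.7%, 33.6% and 38.1% in that order. The median log2 change of the 5 genes was 5.86, 1.77 and 8.77 in the same order, against -0.04, 0.004 and 0.05 over all genes tested. These comparisons share libraries and are not independent of each other.

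**Figure D1:**
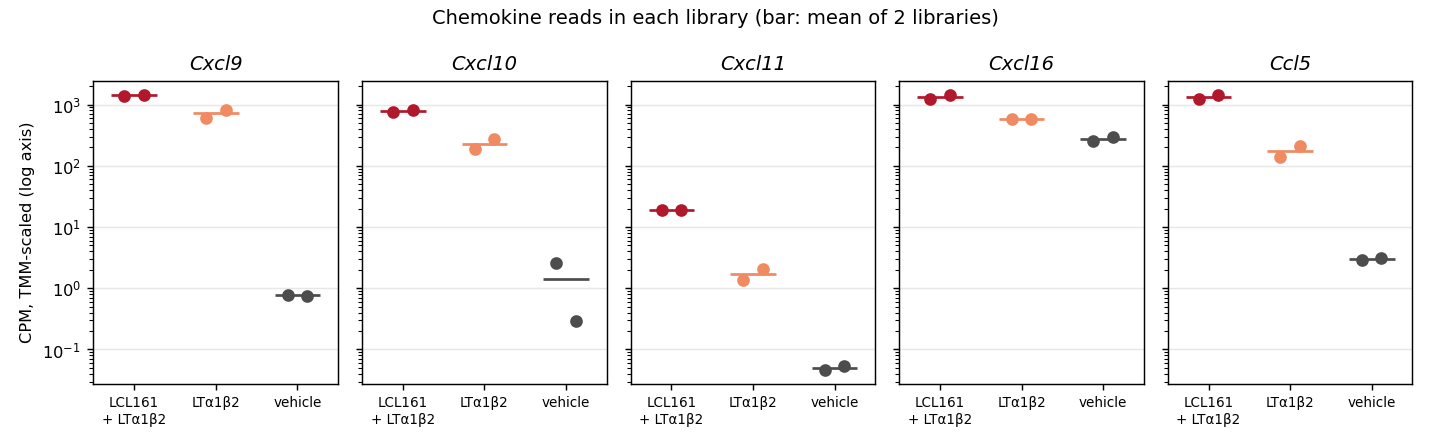
Level of each chemokine gene in each of the 6 libraries, in CPM on TMM-scaled library sizes, on a log axis; each point is 1 library and each bar the mean of 2. In all 5 panels the LCL161 plus LTα1β2 points lie above the LTα1β2 points, and those above the vehicle points; the vehicle points of Cxcl10 (2.55 and 0.297 CPM) lie far apart.

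Cxcl9 had 1386 and 1441 CPM with LCL161 plus LTα1β2, against 611 and 821 CPM with LTα1β2 and 0.787 and 0.757 CPM in vehicle. The 3 groups did not overlap, and vehicle cells held almost no Cxcl9 RNA (17 and 14 reads). Its mean was 1413 ± 39.2 CPM with both agents, 716 ± 149 CPM with LTα1β2 and 0.772 ± 0.0214 CPM in vehicle (SD, n = 2 each). The log2 change with LTα1β2 over vehicle was 9.84 (SE 0.23, edgeR adjusted p = 3.18e-07), rank 3 of 18812 genes by size of increase. LCL161 added 0.98 over LTα1β2 alone (SE 0.14, edgeR adjusted p = 0.00232), which ranked 2910. The LTα1β2 mean was 50.7% of the mean with both agents. With both agents over vehicle the log2 change was 10.82 (SE 0.24, edgeR adjusted p = 1.95e-07), rank 2.

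Cxcl10 had 761 and 809 CPM with LCL161 plus LTα1β2, against 187 and 274 CPM with LTα1β2 and 2.55 and 0.297 CPM in vehicle. The groups did not overlap, but the 2 vehicle libraries, with 55 and 5.5 reads, differed 8.57-fold. Among 14773 genes whose vehicle mean reached 1 CPM, 8 were at least as far higher in vehicle replicate 1 and 2 as far lower, Cxcl10 included in the first number. Irf7, an interferon-induced transcription factor named here after its values were seen, had 40.2 and 9.62 CPM in the same libraries. The GTPase gene Gbp5 had 2.45 and 0.595 CPM. Other interferon-related genes showed no such gap: Cxcl9 had 0.787 and 0.757 CPM, Irf1 42.2 and 45.6 CPM and Stat2 40.1 and 34.5 CPM. The source of the Cxcl10 difference was not tested. The log2 change with LTα1β2 over vehicle was 7.26 (SE 0.53, edgeR adjusted p = 9.61e-05), or 9.43 and 6.49 when vehicle replicate 1 or replicate 2 was left out. With both agents over vehicle it was 9.03 (SE 0.56, edgeR adjusted p = 1.39e-05), or 11.16 and 8.22 without those libraries. LCL161 added 1.77 over LTα1β2 alone (SE 0.38, edgeR adjusted p = 0.0128). That call was lost without LTα1β2 replicate 1 (log2 change 1.46), without LTα1β2 replicate 2 (2.04) and in DESeq2 (1.77, adjusted p = 0.152). It was kept in 11 of its 14 alternatives. Among these were limma voom (adjusted p = 0.000864) and the edgeR fit of just the 2 groups compared (adjusted p = 0.00146). Without vehicle replicate 1 or 2 the log2 change was 1.73 and 1.72. The lowest adjusted p, 6.73e-36, came from edgeR with no filter beyond 1 read.

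Cxcl11 was the least abundant of the 3 CXCR3 ligands, and the one with the largest LCL161 step. It had 19 CPM in each library with LCL161 plus LTα1β2 (260.5 and 248 reads), against 1.34 and 2.09 CPM with LTα1β2 (21 and 39 reads) and 0.0463 and 0.054 CPM in vehicle, where each library held 1 read. Vehicle was thus below the floor of 3 reads per library, and the groups did not overlap. The ratio of scaled reads to vehicle was 381 with both agents (95% counting interval 105 to 3151) and 35 with LTα1β2 (9.28 to 296); these intervals cover counting error only. The log2 change of LCL161 plus LTα1β2 over LTα1β2 was 3.45 (SE 0.22, edgeR adjusted p = 7.9e-05), rank 96 by size of increase. Cells with LTα1β2 alone reached 9.01% of the mean level with both agents. The gene annotation classes Cxcl11 as a polymorphic pseudogene: the reference strain C57BL/6 carries a frameshift in it, and whether these mice carried it is not given in the sources used here.

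The 3 genes lie side by side on the minus strand of chromosome 5 (GRCm38, GENCODE M21): Cxcl9 at chr5:92321347-92328079, Cxcl10 at chr5:92346638-92348889 and Cxcl11 at chr5:92359544-92365485. Exons of Cxcl10 overlap those of Art3, and exons of Cxcl11 those of Gm2673, on the other strand. RefSeq promoter windows (GRCm38.p6, from 250 bases before to 50 bases after the transcription start, minus strand, written 5′ to 3′) were at hand for Cxcl9 and Cxcl10, 2 of the 5 genes, and are shown because these neighbours rose together. Capitals mark matches to letters known from interferon and NF-kB target promoters: an interferon-stimulated response element (GAAA, any 2 bases, GAAA) and a kB-like element (GGGNNTTCC). The CCAAT box (CCAAT), which is not particular to such promoters, is marked as well. Each was searched on both strands, and no match overlapped another. The spellings were chosen with these windows in view.
Cxcl9 (chr5:92328030-92328329): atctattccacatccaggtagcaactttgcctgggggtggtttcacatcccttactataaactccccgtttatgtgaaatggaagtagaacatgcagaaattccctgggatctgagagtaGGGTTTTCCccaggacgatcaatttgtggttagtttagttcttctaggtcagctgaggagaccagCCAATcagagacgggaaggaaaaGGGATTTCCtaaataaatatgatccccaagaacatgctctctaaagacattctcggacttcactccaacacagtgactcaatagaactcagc
Cxcl10 (chr5:92348840-92349139): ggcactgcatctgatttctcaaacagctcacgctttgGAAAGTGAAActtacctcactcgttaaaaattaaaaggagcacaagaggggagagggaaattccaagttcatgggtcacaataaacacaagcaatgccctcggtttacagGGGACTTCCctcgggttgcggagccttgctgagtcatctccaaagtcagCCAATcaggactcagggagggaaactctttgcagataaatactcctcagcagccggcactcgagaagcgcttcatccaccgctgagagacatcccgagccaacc
The Cxcl9 window held 2 kB-like matches, GGGTTTTCC at bases -130 to -122 and GGGATTTCC at -42 to -34 from the start, and no match to the interferon-stimulated response element. The Cxcl10 window held 1 of each: GAAAGTGAAA at -213 to -204 and GGGACTTCC at -103 to -95. It also holds gggaaattcc, which has a base more than the kB-like spelling allows and is not marked. Longer kB spellings were not searched, so these counts do not compare the kB sites of the windows. Of 32817 mouse promoter windows of this length, 5.82% held the kB-like letters, 3.43% the interferon element and 37.4% a CCAAT box. The longest run of bases shared by both windows, CAGCCAATCAG, was 11 bases long and covered the CCAAT box in each (-68 to -58 in Cxcl9, -57 to -47 in Cxcl10). A gamma-activated site spelled TTCNNNGAA, found in 8.29% of windows, was in neither. A match is a description of letters and not a measured binding site.

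**Figure D2:**
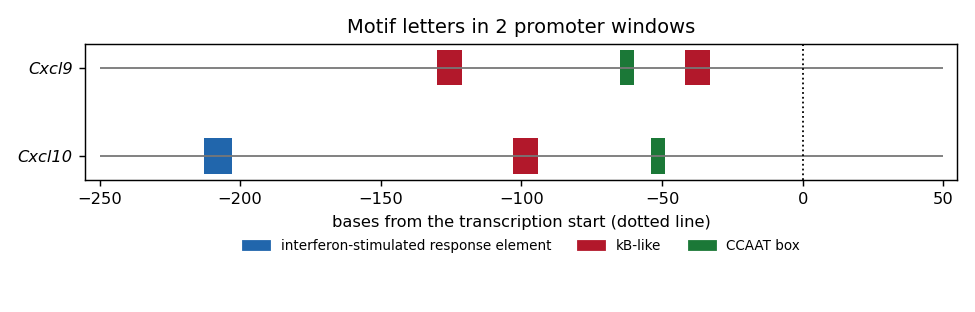
Position of each motif match in the Cxcl9 and Cxcl10 promoter windows, in bases from the transcription start (dotted line); each block is 1 match. Cxcl9 has 2 kB-like blocks and Cxcl10 has 1, and the interferon-stimulated response element is marked in Cxcl10. Only the kB-like spelling GGGNNTTCC was searched, and longer kB spellings are not marked.

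Cxcl16, a transmembrane chemokine, was already abundant in vehicle (83.6 and 97.4 CPM per kilobase of exon, where none of the other four exceeded 3.27). It had 1255 and 1432 CPM with LCL161 plus LTα1β2, against 580.0 and 581 CPM with LTα1β2 and 253 and 294 CPM in vehicle, with no overlap between groups. The steps were 2.12-fold and 2.31-fold: the log2 change was 1.09 with LTα1β2 over vehicle (SE 0.12, edgeR adjusted p = 0.000646) and 1.21 with LCL161 plus LTα1β2 over LTα1β2 (SE 0.12, edgeR adjusted p = 0.000385). By size of increase it ranked 1624 and 2223 of 18812 in these comparisons. With both agents over vehicle the log2 change was 2.30 (SE 0.12, edgeR adjusted p = 6.36e-06). Cxcl16 lies at chr11:70453983-70459984 on the minus strand, and its exons overlap those of Zmynd15 on the other strand.

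Ccl5 had 1210.0 and 1443 CPM with LCL161 plus LTα1β2, against 141 and 209.6 CPM with LTα1β2 and 2.92 and 3.13 CPM in vehicle. The groups did not overlap, and most of its level appeared in the second step: the LTα1β2 mean was 13.2% of the mean with both agents. The log2 change was 5.86 with LTα1β2 over vehicle (SE 0.24, edgeR adjusted p = 5.68e-06, rank 46 by size of increase). LCL161 added 2.92 (SE 0.20, edgeR adjusted p = 0.000101, rank 164), and with both agents over vehicle the change was 8.77 (SE 0.27, edgeR adjusted p = 7.11e-07, rank 13). Ccl5 lies at chr11:83525778-83530518 on the minus strand, apart from Cxcl16 on the same chromosome.

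**Figure D3:**
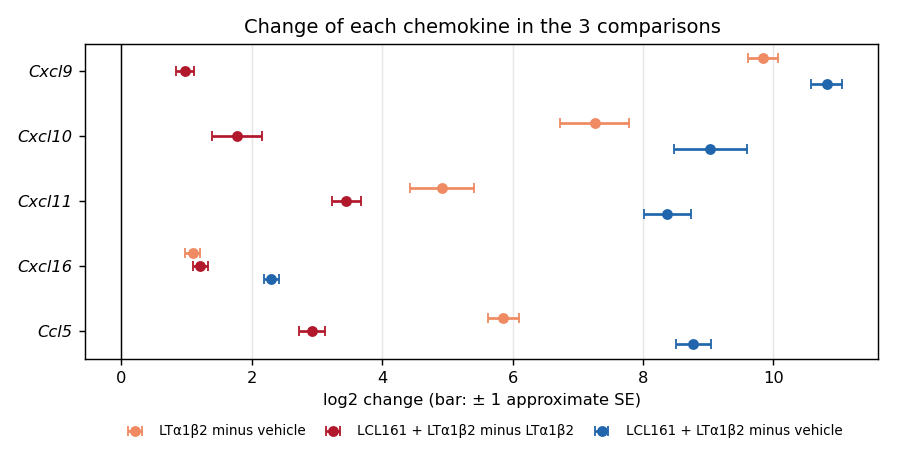
Log2 change of each chemokine gene in the 3 comparisons, with bars of ± 1 approximate SE from the edgeR fit over 6 libraries. Cxcl9 has the largest lymphotoxin step (9.84) beside a small LCL161 step (0.98), Cxcl11 the largest LCL161 step (3.45), and Cxcl16 has 2 small steps (1.09 and 1.21).

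The libraries with LTα1β2 alone also differed from each other: replicate 2 exceeded replicate 1 by 1.35-fold for Cxcl9, 1.47-fold for Cxcl10, 1.56-fold for Cxcl11 and 1.49-fold for Ccl5, whereas Cxcl16 was equal in both (580.0 and 581 CPM). With LCL161 plus LTα1β2 the same ratio lay between 0.999 and 1.19 for the 5 genes.

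Per kilobase of exon, which allows levels of different genes to be set side by side, the makeup of the 5 shifted between groups. With LCL161 plus LTα1β2, Ccl5 came first (1260.4 and 1503 CPM per kilobase), then Cxcl9 (459 and 478) and Cxcl16 (416 and 474), whose ranges overlap, then Cxcl10 (338 and 359) and Cxcl11 (5.01 in both). With LTα1β2, Cxcl9 (202 and 272 CPM per kilobase) exceeded Cxcl16 (192 in both) by 1.05 and 1.42 times, and Ccl5 (147 and 218) overlapped both, followed by Cxcl10 (82.8 and 121) and Cxcl11 (0.353 and 0.55). In vehicle, Cxcl16 took 95% and 96.4% of their summed CPM per kilobase. Ccl5 thus took 50.9% and 53.3% of the sum with both agents, 23.5% and 27.1% with LTα1β2 and 3.45% and 3.23% in vehicle. Among the CXCR3 ligands, Cxcl9 exceeded Cxcl10 by 1.36 and 1.33 times with both agents and by 2.44 and 2.24 times with LTα1β2, and Cxcl10 exceeded Cxcl11 by 67.4 and 71.7 times and by 234 and 221 times. These orders depend on the length used: with the longest coding transcript, Ccl5 came first with LTα1β2 too (265 and 394 CPM per kilobase), and Cxcl10 (562 and 598) passed Cxcl9 (479.6 and 499) with both agents. Among 18502 genes with a length, Ccl5 ranked 31 by mean level per kilobase with both agents, 261 with LTα1β2 and 8820 in vehicle, and Cxcl9 ranked 101, 185 and 15350.

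**Figure D4:**
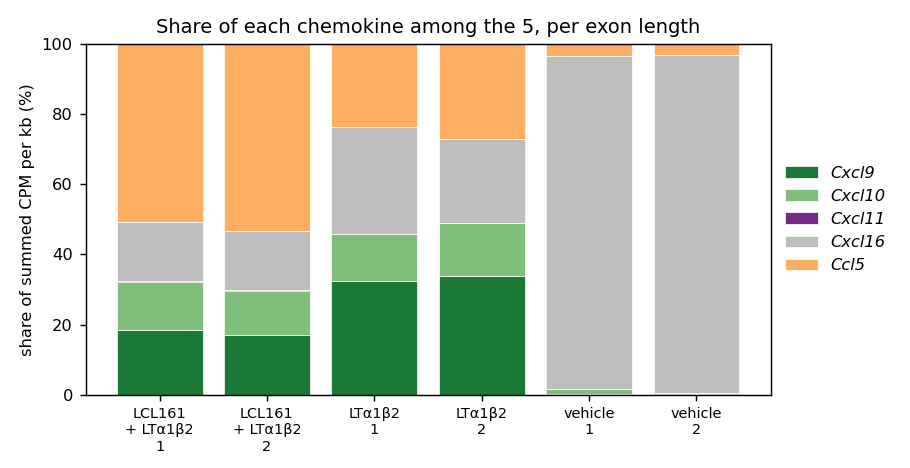
Share of each chemokine gene in the summed CPM per kilobase of exon of the 5 genes, in percent, with 1 stacked bar for each of the 6 libraries. Ccl5 takes 50.9% and 53.3% with LCL161 plus LTα1β2, Cxcl16 takes 95% and 96.4% in vehicle, and Cxcl11 (0.0139% to 0.202%) is too small to see.

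None of the tested receptor genes for these chemokines rose in both steps. Of 7 receptor genes listed, 5 were tested; Ackr1 and Ackr2, decoy receptors that take up CC chemokines, had too few reads. Ccr1, a receptor of CCL5, rose with LTα1β2, and Ccr3, another, and the atypical receptor Ackr3, which binds CXCL11, fell. With LCL161 plus LTα1β2 against LTα1β2, 0 rose (1 without vehicle replicate 1) and 3 fell (Cxcr3, Ccr1 and Ccr3), where 15.1% of all genes tested fell. The share that fell was 10.6% with LTα1β2 over vehicle and 21.1% with both agents over vehicle, where Cxcr3 and Ccr3 fell. Ccr1 had 22.7 and 22.8 CPM with both agents, against 49.3 and 41.8 CPM with LTα1β2 and 25.7 and 23.2 CPM in vehicle. Its LTα1β2 libraries stood above both other groups (log2 change 0.90 over vehicle, edgeR adjusted p = 0.00231, and -1.0 on adding LCL161, edgeR adjusted p = 0.00131). Cxcr3, the receptor of the 3 CXC ligands, had 0.438 and 0.766 CPM with both agents, against 4.91 and 3.37 CPM with LTα1β2 and 3.56 and 6.16 CPM in vehicle. It was low everywhere and lowest with LCL161 (log2 change -2.77 over LTα1β2, SE 0.46, edgeR adjusted p = 0.00433). Cxcr6, the receptor of CXCL16, had 2.92 and 2.14 CPM with both agents, against 1.15 and 1.28 CPM with LTα1β2 and 2.55 and 1.3 CPM in vehicle, and passed in no comparison. Ackr3 had 0.876 and 1.07 CPM with both agents, against 0.255 and 0.321 CPM with LTα1β2 and 1.16 and 7.78 CPM in vehicle, where the libraries held 25 and 144 reads. Its fall with LTα1β2 (log2 change -3.89, edgeR adjusted p = 0.0241) dropped to -1.97 without vehicle replicate 2 (edgeR adjusted p = 0.106), and the call was also lost without LTα1β2 replicate 1 (0.128) or replicate 2 (0.123). Leaving out LCL161 plus LTα1β2 replicate 1 ended the fall of Ccr3 on adding LCL161 (log2 change -1.01 with all libraries and -0.84 without it, edgeR adjusted p = 0.0116 and 0.0557).

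Of 5 enzymes that cut or release these chemokines, 3 rose on adding LCL161 (Anpep, Adam17 and Mmp9) and 1 fell (Adam10). Among all genes tested, 10.6% rose and 15.1% fell in that comparison. With LTα1β2 over vehicle, 2 rose (Anpep and Adam17) and 1 fell (Mmp9), where 12.8% of all genes tested rose and 10.6% fell. Adam17, a membrane protease that can shed CXCL16, had 753 and 739 CPM with both agents, against 371 and 355 CPM with LTα1β2 and 267 and 285 CPM in vehicle. The groups did not overlap, and the log2 change on adding LCL161 was 1.04 (edgeR adjusted p = 0.000278). Its rise with LTα1β2 over vehicle (0.40, edgeR adjusted p = 0.0183) was lost without LTα1β2 replicate 1 (0.0692), LTα1β2 replicate 2 (0.076) or vehicle replicate 1 (0.106), as edgeR adjusted p. Anpep, an aminopeptidase that trims CXCL11, had 158 and 156 CPM with both agents, against 50.7 and 52.8 CPM with LTα1β2 and 34.4 and 32 CPM in vehicle. It rose in both steps, by 0.64 (edgeR adjusted p = 0.00313) and 1.60 on the log2 scale (edgeR adjusted p = 6.12e-05). Adam10, the other main protease known to shed CXCL16, had 236 and 220.5 CPM with both agents, against 377 and 313 CPM with LTα1β2 and 290.4 and 372 CPM in vehicle. It fell on adding LCL161 (log2 change -0.59, edgeR adjusted p = 0.0226), a call lost without LTα1β2 replicate 1 (edgeR adjusted p = 0.0788). Against vehicle it fell by 0.54 on the log2 scale (edgeR adjusted p = 0.0224), a call lost without LCL161 plus LTα1β2 replicate 2 (0.0552) or vehicle replicate 2 (0.0808). Mmp9, a gelatinase that cuts CXCR3 ligands, had 98.9 and 93.5 CPM with both agents, against 67.8 and 64.3 CPM with LTα1β2 and 81.5 and 89.4 CPM in vehicle. The rise on adding LCL161 (log2 change 0.54, edgeR adjusted p = 0.0068) was lost without LTα1β2 replicate 2 (0.0773), and the fall with LTα1β2 over vehicle (-0.37, edgeR adjusted p = 0.0313) without any 1 of the LTα1β2 or vehicle libraries (0.0836 to 0.185). Dpp4, a peptidase that trims all 3 CXCR3 ligands and CCL5, was at 0.216 to 1.9 CPM and passed in no comparison.

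Other chemokines that act on T cells did not move as 1 group. Of 14 listed, 8 were tested. With LTα1β2 over vehicle, Ccl8 and Ccl22 rose, Ccl3 and Cxcl12 fell and 4 did not pass; on adding LCL161, Ccl3, Ccl4 and Ccl22 rose, Cxcl12 and Cx3cl1 fell and 3 did not pass. With both agents over vehicle, 4 rose (Ccl3, Ccl4, Ccl8 and Ccl22) and 3 fell (Ccl17, Cxcl12 and Cx3cl1). Among all genes tested, 12.8%, 10.6% and 18.4% rose and 10.6%, 15.1% and 21.1% fell in these comparisons, in that order. Ccl22, a ligand of CCR4, had 31.9 and 36.8 CPM with both agents, against 0.574 and 0.374 CPM with LTα1β2 and 0.0926 and 0.054 CPM in vehicle. Nearly all of its level appeared on adding LCL161 (log2 change 6.18, edgeR adjusted p = 1.14e-05). The smaller rise with LTα1β2 over vehicle (16 against 3 reads, 6.22 times as many after scaling, 95% counting interval 1.78 to 33.3, edgeR adjusted p = 0.0138) was lost without LTα1β2 replicate 1 (0.073), vehicle replicate 1 (0.0628) or vehicle replicate 2 (0.0693). Ccl8, a monocyte and T cell chemokine, had 16 and 16.2 CPM with both agents, against 11.9 and 14.6 CPM with LTα1β2 and 1 read in each vehicle library. Its rise came with LTα1β2, and the change on adding LCL161 did not pass (log2 change 0.27, edgeR adjusted p = 0.215). Cxcl12, a chemokine of marrow stromal cells, had 17.4 and 15.3 CPM with both agents, against 47.9 and 66.2 CPM with LTα1β2 and 369.8 and 197 CPM in vehicle, and so moved with the stromal marker sum given above. Ccl17, the other CCR4 ligand, was at or below 1.59 CPM in every library, and its fall with both agents over vehicle (edgeR adjusted p = 0.0129) was lost without vehicle replicate 1 (0.0506) or replicate 2 (0.051).

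Interferon transcripts themselves were scarce at 24 h. The 18 interferon ligand genes listed summed to 31.7 and 41.19 reads with both agents, 6 and 9.37 reads with LTα1β2 and 6.95 and 11.12 reads in vehicle, which is 2.31 and 3.15, 0.383 and 0.501, and 0.322 and 0.601 CPM. Ifng, whose product is a classical inducer of Cxcl9 and Cxcl10, had 1 and 4 reads with both agents, no read with LTα1β2 and 1 read in each vehicle library. Ifnb1 was the only ligand tested, with 10 and 13 reads with both agents, 3 and 5 reads with LTα1β2 and 1 and 2 reads in vehicle. Its ratio to vehicle with both agents was 11.5 (95% counting interval 3.47 to 59.8, edgeR adjusted p = 0.00744), a call lost without LCL161 plus LTα1β2 replicate 2 (0.0747), vehicle replicate 1 (0.111) or vehicle replicate 2 (0.0554). Ifnl3, a type III interferon gene, had 7.5 and 8.5 reads with both agents and none in the other groups.

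Of 14 interferon receptor, kinase and transcription factor genes, 9 rose and 0 fell with LTα1β2 over vehicle, with a median log2 change of 1.03, where 12.8% of all genes tested rose and 10.6% fell. On adding LCL161, 4 rose (Ifngr2, Ifnar1, Tyk2 and Irf9) and 0 fell, with a median of 0.22, where 10.6% of all genes tested rose and 15.1% fell. Under scaling by total counts, 2 fell in each step. Irf1, a transcription factor that acts on the CXCR3 ligand genes, had 1068 and 1173 CPM with both agents, against 945 and 1034 CPM with LTα1β2 and 42.2 and 45.6 CPM in vehicle. Stat2, a signal transducer of type I interferon receptors, had 223 and 228 CPM with both agents, against 173 and 191 CPM with LTα1β2 and 40.1 and 34.5 CPM in vehicle. Both rose with LTα1β2 (log2 changes 4.50 and 2.28 over vehicle, edgeR adjusted p = 5.92e-07 and 1.32e-05), and neither passed on adding LCL161 (0.18 and 0.31, edgeR adjusted p = 0.232 and 0.0701). Of the 4 that rose in the second step, Ifnar1, a chain of the type I interferon receptor, held its call without any single library (log2 change 0.72, edgeR adjusted p = 0.00209). The count was 1 without LCL161 plus LTα1β2 replicate 2, LTα1β2 replicate 1 or LTα1β2 replicate 2, where edgeR adjusted p was 0.0688 to 0.154 for Ifngr2, 0.0535 to 0.0956 for Tyk2 and 0.098 to 0.207 for Irf9, and Irf9 was also lost without any other single library (0.0987 to 0.143).

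Of 19 genes of NF-kB subunits, kinases and the receptor complex, 8 rose and 0 fell with LTα1β2 over vehicle (5 rose without vehicle replicate 1, and 5 under scaling by total counts), with a median log2 change of 0.39 (all genes: 12.8% rose and 10.6% fell). On adding LCL161, 12 rose (10 to 13 under settings other than a left-out library, and fewer without some single libraries). The 2 that fell were Ltbr, the lymphotoxin beta receptor, and Tnfrsf1a, a TNF receptor. The median log2 change was 0.51 (all genes: 10.6% rose and 15.1% fell). Nfkb2, the subunit precursor of the noncanonical pathway, had 363 and 414 CPM with both agents, against 76.7 and 85.3 CPM with LTα1β2 and 67.2 and 70.8 CPM in vehicle. Its rise lay in the second step (log2 change 2.26, edgeR adjusted p = 2.8e-05), and the first did not pass (0.23, edgeR adjusted p = 0.172). Tnf, the cytokine, had 399.9 and 448 CPM with both agents, against 82.6 and 96.1 CPM with LTα1β2 and 22 and 25.1 CPM in vehicle. Birc3, which encodes cIAP2, a target of LCL161, had 205 and 206 CPM with both agents, against 74.9 and 75.4 CPM with LTα1β2 and 40 and 40.5 CPM in vehicle. Both rose in both steps: Tnf by 1.92 (edgeR adjusted p = 5.26e-05) and 2.25 on the log2 scale (edgeR adjusted p = 4.68e-05), and Birc3 by 0.90 (edgeR adjusted p = 0.000438) and 1.45 (edgeR adjusted p = 6.86e-05). The fall of Ltbr (log2 change -0.39, edgeR adjusted p = 0.0272) was lost without LCL161 plus LTα1β2 replicate 1 (0.112), LTα1β2 replicate 1 (0.0686) or LTα1β2 replicate 2 (0.0974).

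**Figure D5:**
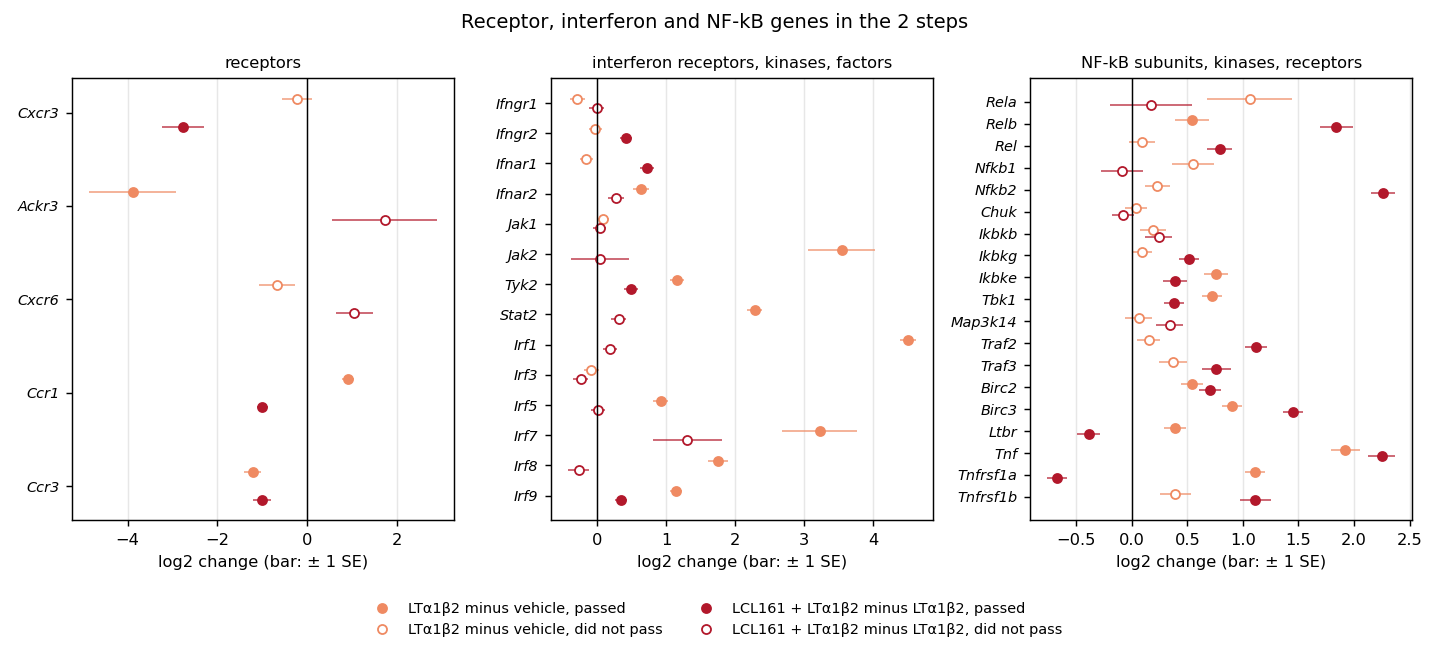
Log2 change of each tested receptor gene (left), interferon receptor, kinase and transcription factor gene (middle) and NF-kB gene (right) in the 2 steps, with bars of ± 1 approximate SE; filled points passed the test and open points did not. Irf1 lies far to the right in the lymphotoxin step (4.50) and near 0 in the LCL161 step (0.18), Nfkb2 moves in the LCL161 step (2.26), and Ccr1 lies right of 0 and then left of it.

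For each chemokine, the genes with the most similar profile were those with the smallest root mean square difference of mean-centred log2 CPM over the 6 libraries, among 10653 genes whose mean reached 5 CPM in 1 group or more; this is a description with no test. Closest to Cxcl9 were Gbp4 (0.53), Iigp1 (0.71) and Gbp6 (0.91), interferon-inducible GTPases, and closest to Cxcl10 were the GTPase Gbp5 (0.30), the complement factor Cfb (0.87) and AW112010 (0.90). Gbp4 had 671 and 676 CPM with both agents, against 699.7 and 766 CPM with LTα1β2 and 0.922 and 0.577 CPM in vehicle, so it lacked the LCL161 step of Cxcl9. Gbp5 had 1093 and 779.5 CPM with both agents, against 279 and 321 CPM with LTα1β2 and 2.45 and 0.595 CPM in vehicle, with the 2 vehicle libraries ordered as for Cxcl10. Closest to Cxcl11 were the costimulatory receptor Cd40 (0.33), Ifi205 (0.38) and the formyl peptide receptor Fpr2 (0.46). All these log2 values carry a prior count of 2, which raises low levels, and Cxcl11 had 1 read in each vehicle library. The distances from Cxcl11 therefore depend on that setting. Cd40 had 578 and 656 CPM with both agents, against 32.4 and 41.5 CPM with LTα1β2 and 5.6 and 4 CPM in vehicle. Its larger step came on adding LCL161 (log2 change 2.93 and then 4.06). By the same fit, Cxcl11 had its larger step with LTα1β2 (4.92 and then 3.45), but that order is uncertain. The 95% counting interval of its ratio to vehicle with LTα1β2, 9.28 to 296, holds the 10.9-fold LCL161 step. The ribonucleases Rnaset2a (0.06) and Rnaset2b (0.07), near-identical copies whose counts cannot be separated with certainty, and the transporter Abcc5 (0.09) were closest to Cxcl16. Acod1, the itaconate-making enzyme (0.21), Apol7c (0.29) and Cst7 (0.35) were closest to Ccl5. Apol7c had 2 and 0 reads in the vehicle libraries, so its distance depends on the prior count too. Acod1 had 3270.1 and 3312 CPM with both agents, against 424 and 481 CPM with LTα1β2 and 9.86 and 10.2 CPM in vehicle. Among the 5 chemokine genes, the most similar pairs were Cxcl11 with Ccl5 (1.02), Cxcl9 with Cxcl10 (1.08) and Cxcl10 with Ccl5 (1.11), which lay close together. The least similar pair was Cxcl9 with Cxcl16 (3.98).

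Within 100 kb of the genes, some tested neighbours changed as well; among all genes tested, 12.8% rose and 10.6% fell with LTα1β2 over vehicle, and 10.6% rose and 15.1% fell on adding LCL161. Around Cxcl9 to Cxcl11, 6 neighbours were tested: 3 rose with LTα1β2 over vehicle (Naaa, Art3 and Scarb2) and 3 on adding LCL161 (Art3, Nup54 and Scarb2), and none fell. Art3, an ADP-ribosyltransferase-family gene, had 89.5 and 97.5 CPM with both agents, against 15.9 and 12.4 CPM with LTα1β2 and 0.926 and 0.405 CPM in vehicle. Its groups did not overlap (log2 changes 4.33 and 2.73, edgeR adjusted p = 4.08e-05 and 0.000122), but its exons overlap those of Cxcl10 on the other strand, and whether the counts used strand is not given in the sources used here, so without strand the reads of this pair cannot be told apart. The rise of Scarb2 with LTα1β2 was lost without vehicle replicate 1 (edgeR adjusted p = 0.0506). On adding LCL161, the rise of Scarb2 was lost without LTα1β2 replicate 2 or either LCL161 plus LTα1β2 library (0.0655 to 0.202), and that of Nup54 without any 1 library (0.0644 to 0.219). Around Ccl5, Ccl9 and Ccl6, chemokines that attract monocytes, were among 5 tested neighbours. Ccl9 had 128 and 108 CPM with both agents, against 28.7 and 28.3 CPM with LTα1β2 and 155 and 135 CPM in vehicle, the opposite of Ccl5 in the first step (log2 change -2.35, edgeR adjusted p = 2.01e-05) and the same direction in the second (2.05, edgeR adjusted p = 7.3e-05). Ccl6 had 21.5 and 20.7 CPM with both agents, against 53 and 41.1 CPM with LTα1β2 and 139 and 155 CPM in vehicle, and fell in both steps. Of 9 tested neighbours of Cxcl16, Zmynd15 rose in both steps and Psmb6, a proteasome subunit, on adding LCL161. Zmynd15 had 127 and 149 CPM with both agents, against 79.4 and 86.3 CPM with LTα1β2 and 30 and 39 CPM in vehicle; its exons overlap those of Cxcl16, and its rise on adding LCL161 (edgeR adjusted p = 0.00941) was lost without LTα1β2 replicate 1 (0.0733) or replicate 2 (0.0582).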

How the data were processed

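RNA sequencing counts of 6 libraries, grouped by the sample titles, were analysed. Values in the deposited table are expected counts, unnormalised, and 66.6% of the non-zero ones are whole. The submitters' processing notes name the build GRCm38, STAR 2.7.3a and DESeq2 1.26.0. Not given in the sources used here are the counting program, its annotation and its use of strand, so counts of genes with overlapping exons are uncertain. Counts were rounded for the tests. The filter filterByExpr (minimum 10 reads) left 18812 of 55023 genes. Group means over all 6 libraries were fitted with R 4.3.3 and edgeR 4.0.16 (TMM factors 0.874 to 1.15, glmQLFit, glmQLFTest, two-sided, Benjamini-Hochberg over the genes tested, biological coefficient of variation 13.6%), and approximate SEs are absolute log2 changes over the root of the F statistic. As a check of the code, the fit was run on simulated counts with the same spread for all genes, a simpler setting than these data. Positions came from GENCODE M21 and promoters from RefSeq. The chemokines and all gene lists were chosen with earlier results of these data known. Named genes are the 5 chemokines, at most 4 examples per list with the smallest p, all members of a count of 5 or fewer, the 3 most similar genes for each chemokine, and tested neighbours within 100 kb. Some pathway genes are not reported here, and list counts leave them out. Alternatives were relative log expression factors, scaling by total counts, DESeq2 1.42.0, limma voom 3.58.1, 2 other filters, fits of just the 2 groups compared, a replicate block and leaving out each library.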

Additional observations from a re-analysis of the deposited data

How the results depend on the processing

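Of 210 values of the 5 chemokines under the alternatives, 207 kept their direction and their side of the threshold, 3 no longer passed and 0 turned round. The 3 all concern Cxcl10 with LCL161 plus LTα1β2 against LTα1β2: the log2 change was 1.77 in DESeq2 (adjusted p = 0.152) and 1.46 to 2.04 with a library left out (adjusted p = 0.0818 without LTα1β2 replicate 1 and 0.0547 without replicate 2); the cause was not tested. Counts of genes called moved more. LTα1β2 over vehicle called 4401 genes, and 1930 to 4933 with a library left out (1930 and 2807 without replicate 1 or 2 of vehicle, 2457 and 2499 without replicate 1 or 2 of LTα1β2). LCL161 plus LTα1β2 over LTα1β2 called 4832, and 2332 to 4604 (2332 without LTα1β2 replicate 2), and over vehicle 7431, and 4885 to 7285 (4885 without vehicle replicate 1). Scaling by total counts moved the median log2 change of all genes to -0.23, -0.12 and -0.26 in the 3 comparisons, and the share of calls that were higher to 33%, 28% and 24.6%, against 54.8%, 41.2% and 46.6% with TMM factors; all 5 chemokines were still called higher. Settings other than a left-out library also ended some calls of other named genes: for LTα1β2 over vehicle, Ackr3 and Ccl22 in limma voom, Mmp9 with no filter beyond 1 read and Adam17 under scaling by total counts; on adding LCL161, Irf9, Scarb2 and Nup54 under both of the last 2 settings, Ifngr2 with no filter, Gbp5 in DESeq2 and Nup54 also in DESeq2, with just the groups compared and with the block. With no filter, 2 receptor genes rose on adding LCL161, against 0. The labels do not say what a shared replicate number means, and deviations of same-numbered libraries correlated by 0.157, 0.0941 and 0.138 between groups, so numbers were not taken as pairs; with the replicate block the counts were 4144, 4629 and 7308, and Cxcl10 passed on adding LCL161 (adjusted p = 0.0265). Depth limits Cxcl11 in vehicle and the interferon ligands, which lie at or near the floor of 3 reads.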
